A study of Rattus norvegicus with 21 samples.

Results

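Rab proteins are small GTPases that mark the membranes of the secretory and endocytic pathways. This account describes the transcripts of 50 rat Rab genes in INS-1, an insulin-secreting cell line from a rat insulinoma in which beta-cell biology is widely studied, under inflammatory cytokines. The genes were taken by name: every gene on the array whose symbol is Rab followed by a number and an optional letter, apart from Rab3a, Rab27a and Rab34. That left 50 of 53 such genes, out of 13438 genes with a probe set of their own. A gene measured by more than 1 probe set was represented by the one with the highest mean over the 21 arrays. Rab1b and Rab5a were measured only by probe sets annotated with more than 1 gene entry and are not among the 50.

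The arrays formed 7 groups of 3. The pCTSH#1 line, 1 clone that stably carries a plasmid for cathepsin H (CTSH, a lysosomal protease), was measured at 0, 6 and 16 h of exposure to 150 pg/ml mouse IL-1β together with 5 ng/ml rat IFNγ. The pcDNA line, stably transfected with the empty vector, was measured at the same times, and untransfected INS-1 cells (INS1) at 0 h only. The promoter that drives CTSH is not given in the sources used here, nor whether pcDNA is a clone. There were no cells kept without cytokines for 6 or 16 h, so the effect of the cytokines and that of time in culture cannot be told apart.

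Each Rab cycles between an inactive form bound to GDP and an active form bound to GTP. Exchange factors (many with DENN domains) load GTP, GTPase-activating proteins (most with TBC domains) end the active state, and effectors read it to move, tether or fuse vesicles. Rabs are prenylated by a geranylgeranyl transferase, which lets them hold to membranes. In beta cells the Rab3 and Rab27 families act in the docking and release of insulin granules, and endosomal Rabs take back membrane after release.

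Values are log2 levels of a probe set after the authors' RMA normalization, and changes are differences of log2 levels with the standard error of the model after ±. A gene was called when limma gave an adjusted p below 0.05 (Benjamini-Hochberg over 31042 probe sets). Whether the 3 replicates of a group came from separate cultures is not stated, so the p-values reflect array-to-array spread that may be technical, and 3 arrays per group limit the precision. Array medians lay between 4.88 and 5.08, and the level of nonspecific control probes, taken as background, between 3.88 and 4.17. Of 12 measured beta-cell markers none was at background in any group, while 4 of 5 leukocyte and 5 or 6 of 6 fibroblast markers were, and Sst, Hhex and Ppy among 5 markers of other islet cells. The summed level of the beta-cell markers lay between 15.6 and 15.97 in pCTSH#1 and between 15.48 and 15.95 in pcDNA, lowest at 16 h in both. The summed level of the other islet markers was 8.93 to 9.206 at 0 h, 8.62 to 8.808 at 6 h and 7.305 to 7.565 at 16 h in pCTSH#1, and 8.64 to 8.978, 8.118 to 8.507 and 6.851 to 7.258 in pcDNA. In untransfected cells this summed level was 7.824 to 8.089, below that of both lines at 0 h. That of the leukocyte markers was 6.213 to 6.314 at 0 h and 6.572 to 6.938 at 16 h in pCTSH#1, and 6.18 to 6.317 and 6.52 to 6.646 in pcDNA. The part of these shifts in the Rab results was not tested. Since RNA was taken from whole cultures, fewer cells of a kind and less RNA per cell cannot be told apart. Rat Ctsh averaged 4.0 ± 0.14 in pCTSH#1 and 3.90 ± 0.08 in pcDNA at 0 h (SD, n = 3 each), both near background, so its probe set does not check the transfection.

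The Rab genes covered the whole range of the array. On all 21 arrays 41 were above background, among them Rab1a, which directs transport between endoplasmic reticulum and Golgi and read 12.28 to 12.51 on every array. Rab7b, Rab17 and Rab25 were at background in all 7 groups, and Rab17 and Rab25 are known chiefly from polarized epithelia. Rab38 was at background in 6 groups, Rab27b and Rab32 in 4, Rab15 in 3 and Rab23 in 1, and Rab33a was there on a single array, where a group counted as at background with 2 of its 3 arrays there. For these genes a fold against such a group is given only as a lower bound.

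At 6 h of cytokines 10 Rab genes were called higher and 13 lower in pCTSH#1, 46% of the 50. Of all genes 34.2% were called, 13% higher and 21.3% lower. In pcDNA the counts were also 10 higher and 13 lower, 46% against 39% of all genes (14.5% higher and 24.6% lower). At 16 h pCTSH#1 had 16 higher and 19 lower, 70% against 55.2% of all genes (25.2% higher and 30.1% lower). In pcDNA 17 were higher and 17 lower, 68% against 55.3% of all genes (25.8% higher and 29.5% lower). The median change of the 50 was 0.0045 at 16 h in pCTSH#1 and 0.037 in pcDNA, and over all genes −0.012 and −0.0045. The median size of the change, sign left out, was 0.55 and 0.51 for the Rab genes and 0.34 in both lines for all genes. On all 21 arrays 41 of the 50 Rab genes were above background, while 61.4% to 71% of all probe sets were on a given array. Genes of like level were not compared. Here and below, a share above that of all genes therefore cannot be read as particular to Rab genes. As deposited, the family therefore had no common direction: similar numbers of members went up and down. Array medians of both lines lay between 4.884 and 4.98 at 16 h, below those at 0 h (5.008 to 5.076). Rescaling the arrays moved some splits towards higher, as given below for the endosome Rabs.

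**Figure D1:**
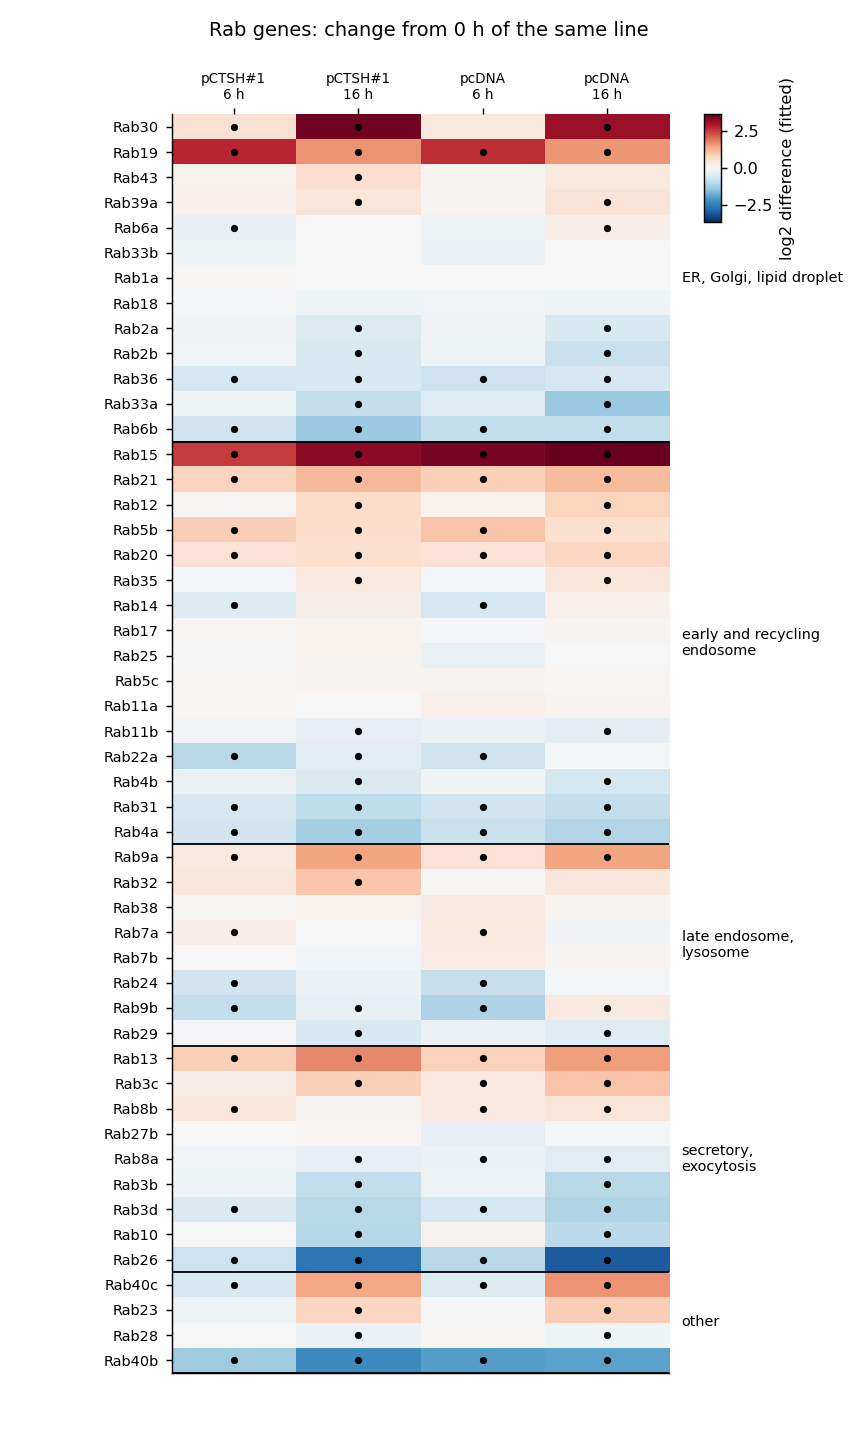
Fitted log2 difference from 0 h of the same line for each of the 50 Rab genes (rows, grouped by the compartment of the protein), in pCTSH#1 and pcDNA at 6 and 16 h (columns). Red is higher and blue lower than at 0 h, and a dot marks an adjusted p below 0.05. Rab15, Rab19 and Rab30 are the deepest red, Rab26 and Rab40b the deepest blue, and most rows look alike in both lines. An exception is Rab9b at 16 h, which is lower than at 0 h in pCTSH#1 and higher in pcDNA.

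Among the Rabs of the endoplasmic reticulum, Golgi and lipid droplets (13 genes), 2 were called higher and 3 lower at 6 h in pCTSH#1, and 1 and 2 in pcDNA, 38.5% and 23.1% of the list against 34.2% and 39% of all genes. At 16 h 4 were higher and 5 lower in both lines, 69.2% against 55.2% and 55.3%. Rab19, a little-studied Golgi-associated Rab, had the largest rise of these at 6 h. Its level on the 3 pCTSH#1 arrays was 6.19, 6.10 and 6.06 at 0 h, 8.80, 8.83 and 8.90 at 6 h, and 7.67, 7.78 and 7.79 at 16 h. On the pcDNA arrays it was 6.11, 5.81 and 6.12 at 0 h, 8.61, 8.76 and 8.64 at 6 h, and 7.47, 7.66 and 7.68 at 16 h. Every 6 h array lay above every 16 h array, and every 16 h array above every 0 h array, the untransfected cells (5.77, 5.81 and 6.05) included. The 6 h level was 6.63-fold the 0 h level in pCTSH#1 (2.73 ± 0.097, adjusted p = 1.53e-14) and 6.3-fold in pcDNA (2.66 ± 0.097, adjusted p = 2.02e-14). From 6 to 16 h Rab19 fell by 1.10 in pCTSH#1 (adjusted p = 1.21e-08) and by 1.07 in pcDNA (adjusted p = 1.68e-08).

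The promoter of Rab19 is shown because it is the one Rab promoter that holds the letters of an interferon regulatory factor (IRF) site. RefSeq promoters (build GRCr8, 250 bases before to 50 after the start of the gene) were on hand for 41 of the 50 genes, in 42 windows. They were searched on both strands for the letters of IRF (GAAA, any 2 bases, GAAA), NF-κB (GGGA, any 2 bases, TTCC), CRE (TGACGTCA), CHOP (TGATGCAA), AP-1 (TGANTCA), the E-box (CACGTG) and the D-box (TTATGTAA). The Rab19 window, chr4:69123712-69124011 on the plus strand, holds 2 overlapping IRF matches read on the opposite strand, 62 and 56 bases before the start, in capitals here.
Rab19: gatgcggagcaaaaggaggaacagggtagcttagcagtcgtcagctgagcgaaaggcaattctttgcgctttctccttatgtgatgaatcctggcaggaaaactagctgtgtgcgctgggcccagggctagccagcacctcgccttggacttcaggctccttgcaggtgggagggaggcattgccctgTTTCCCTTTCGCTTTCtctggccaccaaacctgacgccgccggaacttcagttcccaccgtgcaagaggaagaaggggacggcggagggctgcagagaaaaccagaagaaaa
IRF letters stood in 3.92% of all 33469 promoters and in 1 of the 42 Rab windows. AP-1 letters stood in the windows of Rab4b, Rab9a and Rab27b (7.33% of all promoters), the E-box in those of Rab20, Rab21 and Rab31 (6.42%), and CRE in that of Rab25 (1.83%). NF-κB, CHOP and D-box letters stood in none (1.3%, 0.795% and 0.893% of all promoters). Rab15, the other Rab gene with a rise of this size at 6 h, held none of these motifs in its window, chr6:101257034-101257333 on the minus strand.
Rab15: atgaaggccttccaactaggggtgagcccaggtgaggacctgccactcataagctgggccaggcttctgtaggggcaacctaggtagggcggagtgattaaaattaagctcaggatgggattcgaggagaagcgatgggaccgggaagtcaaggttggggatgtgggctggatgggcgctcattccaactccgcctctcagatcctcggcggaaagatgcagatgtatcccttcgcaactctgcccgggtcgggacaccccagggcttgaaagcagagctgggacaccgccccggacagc
A match is only a run of letters, and its absence says only that these letters are not in this window.

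Rab30, a Golgi Rab, moved late. Its pCTSH#1 arrays read 6.04, 5.40 and 5.35 at 0 h, 6.21, 6.30 and 5.94 at 6 h, and 9.12, 9.21 and 9.0 at 16 h. Its pcDNA arrays read 6.04, 6.27 and 5.87 at 0 h, 6.67, 6.47 and 6.09 at 6 h, and 9.31, 9.28 and 8.89 at 16 h. The 16 h arrays stood far above all others, while the arrays of 6 and 0 h overlapped in both lines. At 16 h the level was 11.4-fold that at 0 h in pCTSH#1 (3.51 ± 0.19, adjusted p = 3.81e-12) and 8.57-fold in pcDNA (3.10 ± 0.19, adjusted p = 2.34e-11). A fainter second probe set of Rab30 gave 2.91 ± 0.11 and 2.97 ± 0.11. At 6 h the change was 0.56 ± 0.19 in pCTSH#1 (adjusted p = 0.0312) and 0.35 ± 0.19 in pcDNA (adjusted p = 0.184).

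The falls in this group were smaller. Rab6b, an isoform of the Golgi Rab6 that is best known from neurons, fell by 1.34 at 16 h in pCTSH#1 (± 0.21, adjusted p = 1.95e-05), with arrays at 4.67, 4.89 and 4.65 against 5.89, 5.93 and 6.42 at 0 h. In pcDNA its 16 h arrays read 5.39, 4.50 and 4.97 against 5.47, 6.10 and 5.94 at 0 h, a fall of 0.88 (± 0.21, adjusted p = 0.00158). At 6 h in pCTSH#1 the change was −0.72 (adjusted p = 0.0141), which missed the threshold when replicate 3 of 0 h (adjusted p = 0.0909) or replicate 3 of 6 h (adjusted p = 0.0554) was left out. Rab33a fell at 16 h by 0.84 in pCTSH#1 and by 1.33 in pcDNA, with 16 h levels near background in both. Its pCTSH#1 arrays of 16 h (4.53, 4.10 and 5.05) and 0 h (5.04, 5.72 and 5.44) overlapped. Rab2a and Rab2b, which act between endoplasmic reticulum and Golgi, fell at 16 h by 0.49 and 0.54 in pCTSH#1 and by 0.55 and 0.79 in pcDNA. A second bright probe set of Rab2a did not share the fall (0.043 in pCTSH#1 and −0.025 in pcDNA, neither called), so the direction of Rab2a is not settled. Rab36 fell at both times in both lines, by 0.57 to 0.75. Rab1a, Rab18 and Rab33b were not called at 16 h in either line. The changes of the 4 genes not called at 16 h lay between −0.16 and 0.02 in pCTSH#1 and between −0.14 and 0.35 in pcDNA.

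Of the 16 Rabs of early and recycling endosomes, 4 were called higher and 4 lower at 6 h in each line, 50% against 34.2% of all genes in pCTSH#1 and 39% in pcDNA. At 16 h 6 were higher and 5 lower in pCTSH#1, and 6 higher and 4 lower in pcDNA, 68.8% and 62.5% against 55.2% and 55.3% of all genes. Cyclic loess turned these 16 h splits to 8 and 4 in pCTSH#1 and 9 and 3 in pcDNA. With arrays centred on their medians they were 7 and 4, and 7 and 3. The 16 h splits of the secretory list did not change under either. Rab15, which acts on early and recycling endosomes, was at background before cytokines and well above it after them. It read 3.78, 3.65 and 3.47 at 0 h, 6.35, 5.75 and 6.37 at 6 h, and 6.77, 6.95 and 6.93 at 16 h in pCTSH#1. In pcDNA it read 3.6, 3.34 and 3.37 at 0 h, 6.78, 6.78 and 7.03 at 6 h, and 6.96, 6.96 and 7.20 at 16 h. All 0 h arrays, with those of untransfected cells at 3.72, 3.56 and 3.74, lay below the background of their arrays. The rise was therefore at least 4.25-fold at 6 h and at least 7.04-fold at 16 h in pCTSH#1 (adjusted p = 1.55e-11 and 1.47e-13). In pcDNA it was at least 7.03-fold and at least 7.95-fold (adjusted p = 1.03e-13 and 3.28e-14). The other probe sets of Rab15 rose far less, with changes at 16 h of 0.71 and 0.88 in pCTSH#1 and 0.83 and 0.44 in pcDNA, the last not called.

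Rab21 and Rab5b rose early in both lines. Rab21, which acts in the uptake of integrins, read 9.85, 9.82 and 9.92 at 0 h, 10.62, 10.71 and 10.69 at 6 h, and 11.05 ± 0.056 at 16 h (mean ± SD, n = 3) in pCTSH#1. In pcDNA its arrays read 9.84, 9.80 and 9.88 at 0 h, 10.77, 10.65 and 10.69 at 6 h, and 11.02, 11.07 and 10.85 at 16 h. The 3 times did not overlap in either line, and the level at 16 h was 2.27-fold that at 0 h in pCTSH#1 (1.18 ± 0.078) and 2.21-fold in pcDNA (1.14 ± 0.078). Rab5b, one of the Rab5 isoforms that drive fusion of early endosomes, was 1.85-fold higher at 6 h in pCTSH#1 (0.89 ± 0.077, adjusted p = 1.86e-08) and 2.04-fold higher in pcDNA (1.03 ± 0.077, adjusted p = 1.64e-09). By 16 h its changes were 0.62 and 0.57. Rab12 and Rab35 were called higher at 16 h only by small steps, 0.67 and 0.34 in pCTSH#1 and 0.79 and 0.41 in pcDNA. Rab20 changed by 0.51 to 0.74 from levels not far above background.

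Rab4a, which returns receptors quickly from early endosomes to the surface, was lower at both times. Its arrays read 8.82, 8.79 and 8.43 at 0 h, 8.03, 8.17 and 7.79 at 6 h, and 7.29, 7.72 and 7.44 at 16 h in pCTSH#1. In pcDNA they read 8.63, 8.61 and 8.41 at 0 h, 7.80, 7.78 and 7.69 at 6 h, and 7.46, 7.62 and 7.40 at 16 h. All treated arrays lay below all 0 h arrays of their line. The 16 h level was 2.29-fold lower than at 0 h in pCTSH#1 (−1.20 ± 0.12, adjusted p = 6.37e-08) and 2.08-fold lower in pcDNA (−1.06 ± 0.12, adjusted p = 3.38e-07). Rab31, which works between the trans-Golgi and endosomes, fell by 0.92 in pCTSH#1 and by 0.84 in pcDNA at 16 h. Rab4b and Rab11b fell by 0.53 and 0.31 in pCTSH#1 and by 0.63 and 0.33 in pcDNA.

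**Figure D2:**
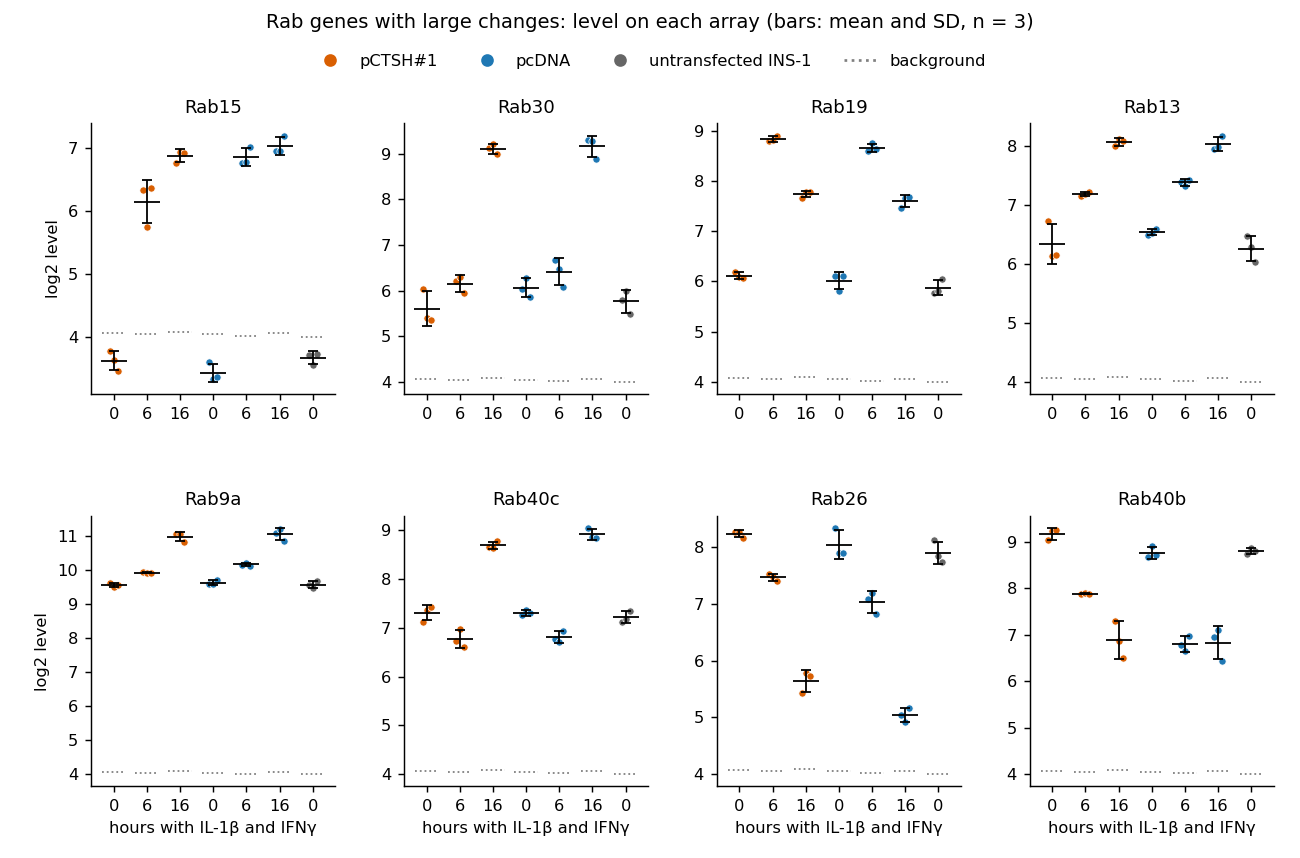
Log2 level on each array (points) with the mean and SD of 3 arrays (bars) for 8 Rab genes with large changes, by hours with IL-1β and IFNγ in pCTSH#1 and pcDNA and at 0 h in untransfected cells; the dotted line is the mean background of the group. Rab15 starts below background, Rab19 peaks at 6 h, Rab30 and Rab40c are high only at 16 h, and Rab26 and Rab40b fall.

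Of the 8 Rabs of late endosomes, lysosomes and related organelles, 2 were called higher and 2 lower in pCTSH#1 at both 6 and 16 h. In pcDNA 2 were higher and 2 lower at 6 h, while 16 h had 2 higher and 1 lower. At 16 h that was 50% of the list in pCTSH#1 and 37.5% in pcDNA, below the 55.2% and 55.3% of all genes, and at 6 h 50% in both lines against 34.2% and 39%. Rab9a, which returns mannose 6-phosphate receptors from late endosomes to the Golgi, rose most. Its pCTSH#1 arrays read 9.61, 9.50 and 9.55 at 0 h, 9.93, 9.91 and 9.91 at 6 h, and 11.04, 11.06 and 10.82 at 16 h. Its pcDNA arrays read 9.58, 9.58 and 9.71 at 0 h, 10.15, 10.19 and 10.12 at 6 h, and 11.09, 11.19 and 10.85 at 16 h. No times overlapped in either line, and the 16 h level was 2.67-fold that at 0 h in pCTSH#1 (1.42 ± 0.089, adjusted p = 4.79e-11) and 2.68-fold in pcDNA (1.42 ± 0.089, adjusted p = 4.36e-11). Rab32, a Rab of lysosome-related organelles, was at background in every 0 h group and in pcDNA at 6 h. At 16 h it read 4.7, 5.00 and 4.69 in pCTSH#1 and 3.98, 4.47 and 4.39 in pcDNA, against 3.56 to 4.16 over all 0 h arrays of the 3 lines. It was called in pCTSH#1 (adjusted p = 2.24e-05) and not in pcDNA. Rab29 fell at 16 h by 0.56 in pCTSH#1 and by 0.43 in pcDNA.

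Rab7a, which directs fusion of late endosomes with lysosomes, rose at 6 h by 0.24 ± 0.084 in pCTSH#1 and 0.36 ± 0.084 in pcDNA, and was not called at 16 h (−0.026 and −0.13). A second, fainter probe set of Rab7a did not share this course: at 16 h it was higher than at 0 h by 0.61 ± 0.10 in pCTSH#1 and 0.70 ± 0.10 in pcDNA (adjusted p = 3.22e-05 and 6.07e-06).

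Of the 50 genes 5 were called lower at 6 h than at 0 h, and higher at 16 h than at 6 h, in both lines, 10% against 5.73% of all genes. They were Rab14 and Rab22a, of traffic between Golgi and endosomes, Rab24, linked to autophagy, Rab9b, the relative of Rab9a, and Rab40c, which ended far above its 0 h level and is described with Rab40b. Rab9b read 8.64, 8.38 and 8.76 at 0 h, 7.79, 7.77 and 7.62 at 6 h, and 8.26, 8.34 and 8.30 at 16 h in pCTSH#1. In pcDNA it read 8.51, 8.45 and 8.48 at 0 h, 7.52, 7.49 and 7.10 at 6 h, and 8.83, 8.85 and 8.81 at 16 h. The pCTSH#1 arrays at 16 h thus stayed below their 0 h arrays, and the pcDNA arrays at 16 h stood above theirs. Rab22a fell by 0.98 ± 0.090 at 6 h in pCTSH#1 and by 0.71 ± 0.090 in pcDNA, and its 16 h level was 0.61 and 0.67 above the 6 h level. For Rab14 the drop at 6 h was 0.49 and 0.64, and for Rab24 0.69 and 0.82. The 16 h level exceeded the 6 h level in pCTSH#1 and in pcDNA by 0.71 and 0.83 for Rab14 and by 0.46 and 0.75 for Rab24.

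**Figure D3:**
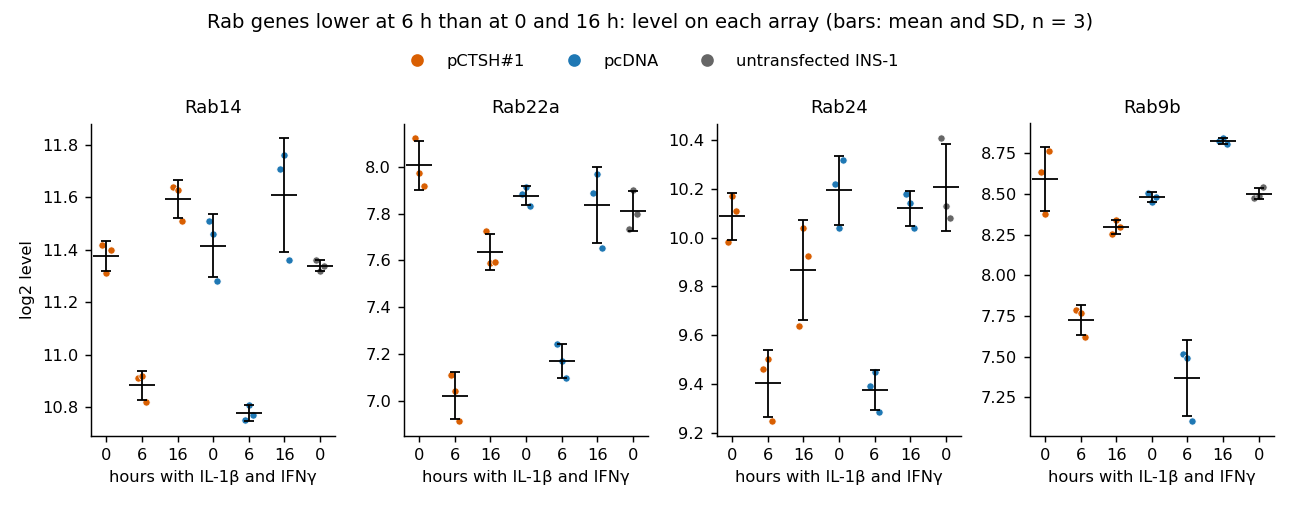
Log2 level on each array (points) with the mean and SD of 3 arrays (bars) for Rab14, Rab22a, Rab24 and Rab9b, by hours with IL-1β and IFNγ in pCTSH#1 and pcDNA and at 0 h in untransfected cells. The 6 h arrays are the lowest of each line in all 4 panels, and Rab9b at 16 h is lower in pCTSH#1 (8.26 to 8.34) than in pcDNA (8.81 to 8.85).

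Between 6 and 16 h over the whole family, 17 genes were called higher and 19 lower in pCTSH#1, 72% against 49.2% of all genes (24% higher and 25.2% lower). In pcDNA 15 were higher and 12 lower, 54% against 49.9% of all genes (24.8% higher and 25.1% lower). With arrays centred on their medians the split in pCTSH#1 was 18 higher and 13 lower, and the median of all genes in that comparison was 0.10, against 0.0049 as deposited. These counts share arrays with those against 0 h.

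Among the 9 Rabs of secretory granules and exocytosis, 2 were called higher and 2 lower at 6 h in pCTSH#1, and 3 and 3 in pcDNA, 44.4% and 66.7% against 34.2% and 39% of all genes. At 16 h 2 were higher and 5 lower in pCTSH#1, and 3 and 5 in pcDNA, 77.8% and 88.9% against 55.2% and 55.3%. Rab26, known from the maturation of secretory granules, had the largest fall of all Rab genes at 16 h in both lines. Its arrays read 8.27, 8.28 and 8.16 at 0 h, 7.53, 7.48 and 7.41 at 6 h, and 5.42, 5.79 and 5.74 at 16 h in pCTSH#1. In pcDNA they read 8.34, 7.89 and 7.91 at 0 h, 7.09, 7.20 and 6.82 at 6 h, and 5.05, 4.91 and 5.16 at 16 h. The 3 times did not overlap in either line. At 16 h the level was 6.02-fold lower than at 0 h in pCTSH#1 (−2.59 ± 0.13, adjusted p = 2.33e-12) and 8.03-fold lower in pcDNA (−3.00 ± 0.13, adjusted p = 2.48e-13).

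The Rab3 genes, whose proteins sit on secretory vesicles and act in their docking and priming, did not move alike. Rab3b read 8.76, 8.87 and 8.87 at 0 h, 8.68, 8.58 and 8.73 at 6 h, and 8.13, 7.85 and 7.90 at 16 h in pCTSH#1. In pcDNA it read 8.45, 8.61 and 8.35 at 0 h, 8.29, 8.22 and 8.33 at 6 h, and 7.59, 7.52 and 7.32 at 16 h. It was called lower at 16 h in both lines, by 0.87 ± 0.092 and 1.00 ± 0.092, and at 6 h in neither. Rab3d read 11.14, 11.20 and 11.10 at 0 h, 10.59, 10.65 and 10.66 at 6 h, and 10.17, 10.07 and 10.17 at 16 h in pCTSH#1. Its fall at 16 h was 1.01 ± 0.081 there and 1.09 ± 0.081 in pcDNA. Rab3c went the other way: it read 9.01, 8.94 and 8.85 at 0 h, 9.20, 9.19 and 9.16 at 6 h, and 9.95, 9.88 and 9.56 at 16 h in pCTSH#1. The rise at 16 h was 1.82-fold in pCTSH#1 (0.87 ± 0.11, adjusted p = 1.87e-06) and 2.03-fold in pcDNA (1.02 ± 0.11, adjusted p = 1.91e-07).

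Rab13, which moves cargo to cell junctions and the plasma membrane, rose in steps. It read 6.72, 6.12 and 6.15 at 0 h, 7.14, 7.18 and 7.21 at 6 h, and 8.0, 8.12 and 8.07 at 16 h in pCTSH#1. In pcDNA it read 6.49, 6.52 and 6.59 at 0 h, 7.39, 7.32 and 7.42 at 6 h, and 7.95, 7.98 and 8.17 at 16 h. The 16 h level was 3.32-fold that at 0 h in pCTSH#1 (1.73 ± 0.13, adjusted p = 5.41e-10) and 2.82-fold in pcDNA (1.5 ± 0.13, adjusted p = 4.53e-09). Rab8a, which carries vesicles to the plasma membrane, fell at 16 h by 0.29 in pCTSH#1 and by 0.37 in pcDNA. Its relative Rab8b rose at 6 h by 0.42 and 0.34, and at 16 h it was called higher in pcDNA (0.44) and not in pCTSH#1 (0.097). For Rab10, which carries glucose transporters in fat cells, the probe sets disagreed: at 16 h the chosen one fell by 1.03 in pCTSH#1 and by 0.93 in pcDNA, while another rose by 0.34 and 0.39, all 4 called. The direction of Rab10 is therefore not settled.

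In the remaining group the relatives Rab40b and Rab40c, which carry a SOCS box and join ubiquitin ligases, parted at 16 h. Rab40b read 9.03, 9.23 and 9.25 at 0 h, 7.88, 7.89 and 7.88 at 6 h, and 7.30, 6.86 and 6.50 at 16 h in pCTSH#1. In pcDNA it read 8.67, 8.91 and 8.72 at 0 h, 6.77, 6.64 and 6.98 at 6 h, and 6.95, 7.11 and 6.43 at 16 h. In pCTSH#1 it fell further from 6 to 16 h (−0.99 ± 0.17, adjusted p = 5.5e-05), while in pcDNA the arrays of 6 and 16 h overlapped. Against 0 h the 16 h level was 4.86-fold lower in pCTSH#1 (−2.28 ± 0.17) and 3.82-fold lower in pcDNA (−1.94 ± 0.17). Rab40c first fell, by 0.54 in pCTSH#1 and by 0.50 in pcDNA at 6 h, and then rose to 2.61-fold (1.38 ± 0.11) and 3.05-fold (1.61 ± 0.11) its 0 h level at 16 h. Its arrays read 7.13, 7.38 and 7.43 at 0 h, 6.74, 6.98 and 6.61 at 6 h, and 8.66, 8.64 and 8.79 at 16 h in pCTSH#1. Rab23, a negative regulator of Hedgehog signalling, read 4.88, 4.6 and 5.21 at 16 h in pCTSH#1 and 4.94, 5.15 and 5.09 in pcDNA, against 3.68 to 4.29 on all 0 h arrays, which lay at or near background. Rab28 fell at 16 h by 0.21 in pCTSH#1 and by 0.16 in pcDNA.

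Because close relatives often share effectors, the changes of 12 pairs of paralogues were set against each other at both times, 24 tests. For each pair the change of 1 gene minus that of the other was averaged over both lines and tested with an exact two-sided permutation of the time labels within each line (400 arrangements, smallest possible p = 0.005). The largest difference was that of Rab40b minus Rab40c at 16 h, −3.6 on the log2 scale (−3.66 in pCTSH#1 and −3.54 in pcDNA, adjusted p = 0.00706). Every test with the smallest possible p had this adjusted p, so it does not set the pair apart. Rab3c minus Rab3d was 1.99 and Rab3b minus Rab3c −1.88 at 16 h, while Rab3b and Rab3d were not called different (0.11, adjusted p = 0.147), a call that was made without replicate 3 of pcDNA at 16 h (0.17, adjusted p = 0.0114). Rab9a minus Rab9b was 1.43 at 6 h and 1.39 at 16 h. Rab6a minus Rab6b was 1.23 and Rab33a minus Rab33b −1.09 at 16 h (adjusted p = 0.00706 and 0.012). Rab33a was near background at 16 h in both lines. The members of the pairs Rab4a and Rab4b, Rab5b and Rab5c, and Rab8a and Rab8b differed by 0.52 to 0.60 at 16 h. For Rab2a and Rab2b no difference was called at either time (0.013 and 0.14, adjusted p = 0.835 and 0.126), but with all probe sets of each gene averaged the 16 h difference was 0.34 and called (adjusted p = 0.00632). For Rab11a and Rab11b the difference at 16 h, 0.38, turned to −0.50 when all probe sets of a gene were averaged. The pairs and this test were chosen after the changes of single genes were known.

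**Figure D4:**
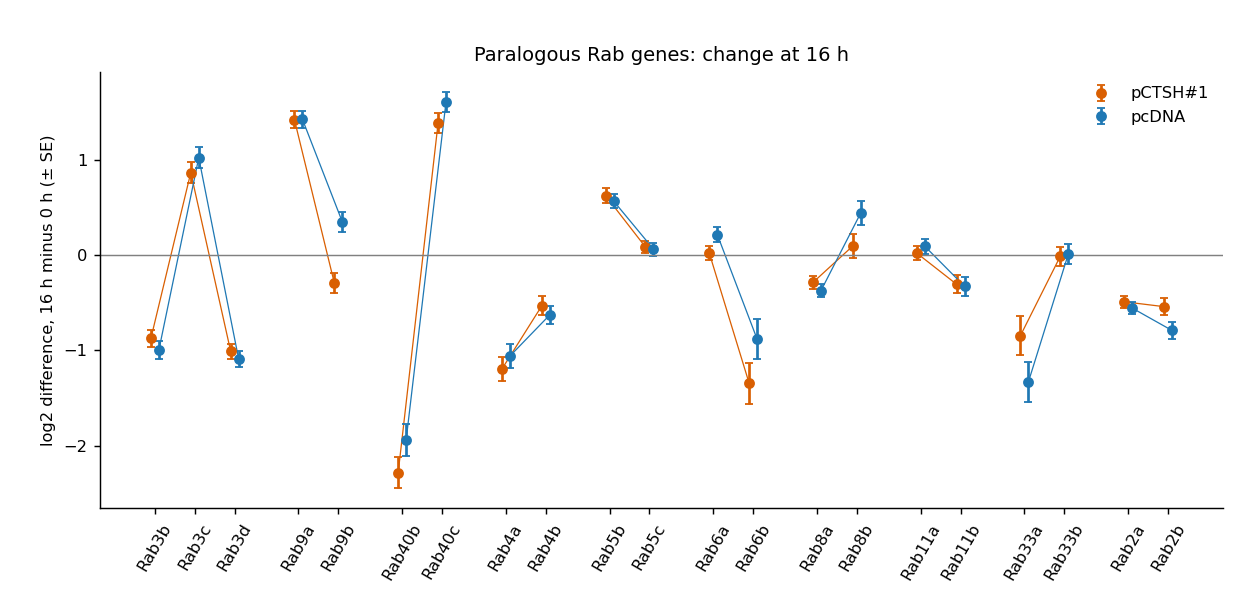
Fitted log2 difference between 16 h and 0 h (points) with its standard error (bars) for paralogous Rab genes, joined by lines within pCTSH#1 and within pcDNA. Rab40b and Rab40c, and Rab3c and its relatives, lie on opposite sides of 0 in both lines, while Rab2a and Rab2b, by the probe sets used, lie side by side.

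The response to cytokines was then compared between the lines, which share no arrays. Calls common to both lines were counted for the Rab genes only. Without the same share over all genes, the agreement cannot be read as particular to Rab genes. At 6 h 9 of the 10 genes called higher in pCTSH#1 were called higher in pcDNA too (90% of each list), and 12 of the 13 called lower (92.3% of each list). The exceptions were Rab30 and Rab6a in pCTSH#1, and Rab3c and Rab8a in pcDNA. At 16 h 14 higher genes were shared, 87.5% of those in pCTSH#1 and 82.4% of those in pcDNA, and 17 lower genes, 89.5% and 100%. Rab32 and Rab43 (higher) and Rab22a and Rab9b (lower) were called in pCTSH#1, and Rab6a, Rab8b and Rab9b (higher) in pcDNA. For Rab43 the pCTSH#1 arrays of 16 h (6.10, 5.34 and 6.14) and 0 h (5.43, 5.10 and 5.24) overlapped. In pcDNA its change had the same direction (0.35, not called). Rab9b was the 1 gene called in opposite directions, −0.29 ± 0.10 in pCTSH#1 (adjusted p = 0.0249) and 0.35 ± 0.10 in pcDNA (adjusted p = 0.00869).

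The difference between the responses was tested directly, and limma called 0 of 50 Rab genes at 6 h (3 with an unadjusted p below 0.05; 0.119% of all genes called) and 0 of 50 at 16 h (4 unadjusted; 0.275% of all genes). The response of Rab9b at 16 h was 0.64 ± 0.15 lower in pCTSH#1 than in pcDNA, with an adjusted p of 0.0847. It was called when tests were limited to the brighter 50% of probe sets, with trend and robust settings, with all probe sets averaged and without replicate 2 of pCTSH#1 at 0 h. The rise of Rab15 at 6 h was 0.90 ± 0.20 lower in pCTSH#1 (adjusted p = 0.111), a fitted value that rests on 0 h groups at background.

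**Figure D5:**
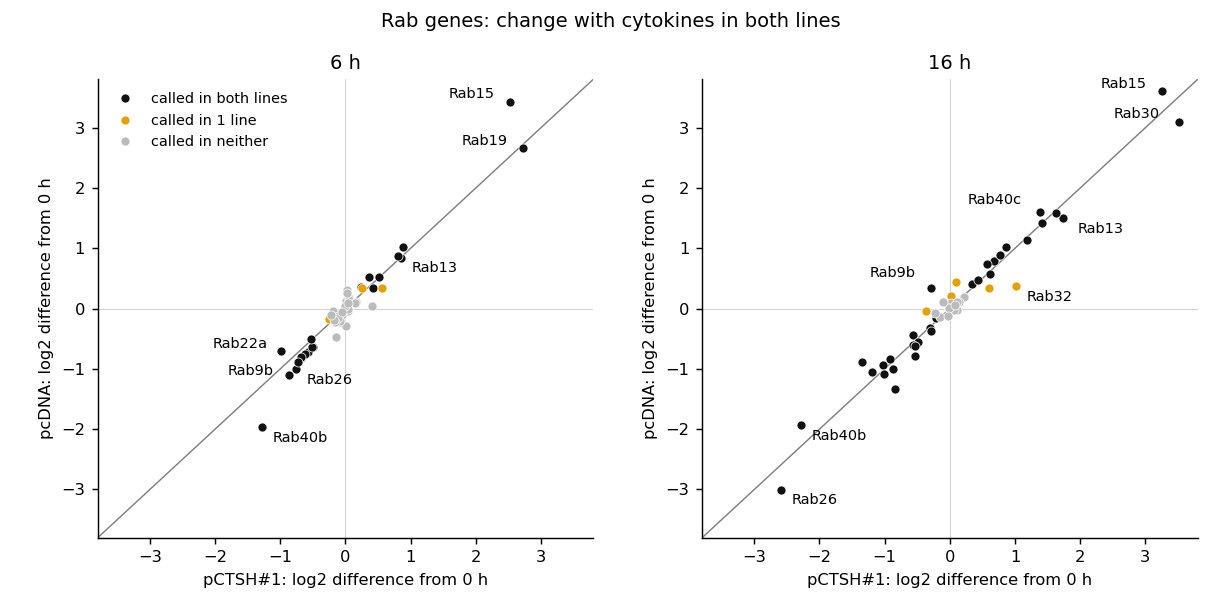
Log2 difference from 0 h in pCTSH#1 (x axis) and in pcDNA (y axis) for the 50 Rab genes at 6 h (left) and 16 h (right), coloured by the lines in which limma called them; the diagonal marks equal change. Most called genes lie near the diagonal, and Rab9b at 16 h lies above 0 in pcDNA and below 0 in pCTSH#1.

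Levels of the Rab genes were also compared between the lines at each time. At 0 h limma called 0 of 50 between pCTSH#1 and pcDNA (4 with an unadjusted p below 0.05; 2.56% of all genes called) and 0 of 50 between pCTSH#1 and untransfected cells (9 unadjusted; 3.45% of all genes). Between pcDNA and untransfected cells it also called 0 of 50 (3 unadjusted; 0% of all genes). At 6 h 2 genes were called higher and 1 lower in pCTSH#1 than in pcDNA, 6% against 3.99% of all genes (2.43% higher and 1.56% lower). At 16 h it was again 2 higher and 1 lower, 6% against 5.28% of all genes (3.32% higher and 1.96% lower).

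Rab40b at 6 h had the largest of these differences. Its arrays read 7.88, 7.89 and 7.88 in pCTSH#1 against 6.77, 6.64 and 6.98 in pcDNA, 2.12-fold higher (1.09 ± 0.17, adjusted p = 0.000635), and this call held in the 7 alternative settings and with each of the 6 arrays left out. At 0 h the Rab40b arrays also read higher in pCTSH#1 (9.03, 9.23 and 9.25) than in pcDNA (8.67, 8.91 and 8.72), by 0.40, which was not called. The difference between its responses at 6 h, 0.68, was not called either. At 16 h the lines overlapped for Rab40b (0.06 ± 0.17). Rab3b was higher in pCTSH#1 at each time, by 0.36 ± 0.092 at 0 h (adjusted p = 0.0505), 0.39 ± 0.092 at 6 h (adjusted p = 0.0243) and 0.48 ± 0.092 at 16 h (adjusted p = 0.00431). The arrays of the lines did not overlap for Rab3b at any of these times. Its call at 6 h was lost without any 1 of 5 of the 6 arrays compared (adjusted p up to 0.111, all but replicate 2 of pCTSH#1) and with arrays centred on their medians (adjusted p = 0.0768), and that at 16 h in a fit of only the arrays compared (adjusted p = 0.148).

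Rab15 at 6 h was lower in pCTSH#1 (6.35, 5.75 and 6.37) than in pcDNA (6.78, 6.78 and 7.03), by 0.71 ± 0.14 (adjusted p = 0.00539), and at 16 h it was not called (−0.15 ± 0.14). The 6 h call was lost in a fit of only the arrays compared (adjusted p = 0.0766) and with all probe sets of the gene averaged (−0.37, adjusted p = 0.139). Rab9b at 16 h was lower in pCTSH#1 (8.26, 8.34 and 8.30) than in pcDNA (8.83, 8.85 and 8.81), by 0.53 ± 0.10 (adjusted p = 0.00518). Rab26 at 16 h was higher in pCTSH#1 (5.42, 5.79 and 5.74) than in pcDNA (5.05, 4.91 and 5.16), by 0.61 ± 0.13 (adjusted p = 0.0118). The call of Rab26 was lost without replicate 2 of pcDNA (adjusted p = 0.0644) and without replicate 2 or 3 of pCTSH#1 (adjusted p = 0.0593 and 0.0518), and in a fit of only the arrays compared (adjusted p = 0.095). With 1 clone, a difference between the lines cannot be told apart from one between clones.

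The genes that load, switch off and read Rabs were measured on the same arrays. Of 28 measured GTPase-activating proteins, 3 were called higher and 13 lower at 6 h in pCTSH#1, and 2 and 12 in pcDNA, 57.1% and 50% against 34.2% and 39% of all genes. At 16 h 15 were higher and 6 lower in pCTSH#1, and 17 and 7 in pcDNA, 75% and 85.7% against 55.2% and 55.3%. The median change of this list at 16 h was 0.31 in pCTSH#1 and 0.44 in pcDNA, beside −0.012 and −0.0045 over all genes, and it kept this direction under cyclic loess and with arrays centred on their medians. Tbc1d30, a TBC-domain protein described as acting on Rab8, was 0.50 lower at 6 h and 1.99 higher at 16 h in pCTSH#1, and 0.53 lower and 2.22 higher in pcDNA. Tbc1d25, which acts on Rab33b, rose at 16 h by 1.64 in pCTSH#1 and 1.51 in pcDNA, whereas Rab33b itself was not called. Tbc1d7, better known as a subunit of the TSC complex, fell at 16 h by 2.07 in pCTSH#1 and by 2.21 in pcDNA.

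Of 26 measured exchange factors 2 were called higher and 9 lower at 6 h in pCTSH#1, and 3 and 10 in pcDNA, 42.3% and 50% against 34.2% and 39% of all genes. At 16 h 6 were higher and 11 lower in pCTSH#1, and 8 and 10 in pcDNA, 65.4% and 69.2% against 55.2% and 55.3%. Dennd2d, a DENN-domain protein described as an exchange factor of Rab9, rose by 3.71 ± 0.15 at 6 h and 3.85 ± 0.15 at 16 h in pCTSH#1, and by 4.10 ± 0.15 and 3.6 ± 0.15 in pcDNA. Rin2, an exchange factor of Rab5, had changes at 16 h of −2.99 ± 0.15 in pCTSH#1 and −2.84 ± 0.15 in pcDNA, both called. Dennd6a, described for Rab14, fell at 16 h by 1.45 and 1.30 and was not called at 6 h.

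Of 42 measured effectors 8 were called higher and 12 lower at 6 h in pCTSH#1, and 9 and 13 in pcDNA, where cyclic loess turned the split to 13 and 11. That was 47.6% and 52.4% against 34.2% and 39% of all genes. At 16 h 16 were higher and 7 lower in both lines, 54.8%, about the share of all genes (55.2% and 55.3%). Micall2, an effector of Rab13 at cell junctions, rose at 6 and 16 h by 2.35 and 3.36 in pCTSH#1 and by 2.61 and 3.43 in pcDNA, so Rab13 and this partner were both higher at both times. Optn (optineurin, a Rab8 effector) rose at 16 h by 1.81 in pCTSH#1 and 1.83 in pcDNA, and Appl2, a Rab5 effector of early endosomes, fell by 2.13 and 1.59. Sytl4 (granuphilin), which ties Rab3 and Rab27 to insulin granules, had changes at 16 h of −3.13 ± 0.17 in pCTSH#1 and −3.63 ± 0.17 in pcDNA, and was 0.83 ± 0.17 higher in pCTSH#1 than in pcDNA at 6 h (adjusted p = 0.00653).

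Of 6 measured genes of Rab prenylation and membrane cycling, 0 were called higher and 1 lower at 6 h in pCTSH#1, and 0 and 2 in pcDNA. That was 16.7% and 33.3% against 34.2% and 39% of all genes, and cyclic loess turned the splits to 1 and 1, and 2 and 1. At 16 h 3 were higher and 2 lower in pCTSH#1, and 3 and 1 in pcDNA, 83.3% and 66.7% against 55.2% and 55.3% of all genes. Rabggtb, the catalytic subunit of the geranylgeranyl transferase that prenylates Rabs, rose at 16 h by 1.18 ± 0.11 in pCTSH#1 and 1.29 ± 0.11 in pcDNA. Chm, the escort protein that presents Rabs to this enzyme, rose by 0.62 and 0.77.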

How the data were processed

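RNA from 21 INS-1 samples (7 groups of 3) was measured on 1-colour Affymetrix rat arrays. The deposited values are log2 expression levels per probe set; the authors made them with RMA, and affy and limma are also named, per the submitters' processing notes. They were used as deposited: 31137 probe sets, of which 95 controls were left out of the tests. A probe set was named only where the platform annotation gave it 1 symbol (19063 probe sets); 572 had several and 11407 were unnamed here.

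A model of 7 group means was fitted with limma 3.58.1 (R 4.3.3) over all arrays, with 13 comparisons, two-sided p-values and Benjamini-Hochberg adjustment over 31042 probe sets within a comparison. In a simulation of the pcDNA comparison of 16 h with 0 h on 31042 probe sets, 100 were changed by 0.5 and 100 by 1 (log2). The fit recovered 46% of the changes of 0.5 and 96% of those of 1. In the data this comparison called 6598 probe sets higher and 7801 lower. The adjusted threshold depends on how many probe sets change, so these shares do not give the power of the reported comparison. Background was the highest nonspecific control of each array; 61.4% to 71% of probe sets lay above it. "Near" means less than 0.5 above it.

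The members, the role and companion lists and the paralogue pairs were chosen with earlier results of these data known. Full statistics were kept for at most 10 called genes per comparison whose arrays did not overlap, those with the largest change, and for up to 4 genes of each companion list. Rab3b, Rab3c and Rab3d, Rab4a and Rab6b in pcDNA, Rab30 at 6 h, Rab7a, Rab9b at 16 h and Rab32 were given further statistics after their values were seen. Alternatives were cyclic loess, median centring, the brighter 50% of probe sets, trend and robust settings, a fit of the compared arrays alone, averaging a gene's probe sets, a replicate block and leaving out each array. One further promoter motif was left out and is not reported here. The alternatives for paralogue pairs and the count of genes that dip at 6 h were added after the data were seen.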

Additional observations from a re-analysis of the deposited data

How the results depend on the processing

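Of 90 named results, 81 kept their direction and their side of the threshold under every alternative run. Over 1336 alternative values, 15 kept their direction but missed the threshold, 2 newly passed it and 6 reversed. The difference between Rab2a and Rab2b at 6 h, 0.013 and not called, was -0.049 with cyclic loess and lay between -0.0289 and 0.0475 with 1 array left out (-0.00202, -0.00324 and -0.00256 in the other reversals), and at 16 h averaged probe sets gave 0.342. The difference between Rab11a and Rab11b at 16 h was -0.501 with the mean of all probe sets, and the second probe set of Rab11a fell by 1.47 in pCTSH#1. Between pCTSH#1 and pcDNA at 0 h, against 0 Rab genes in the report, 1 was called (Rab3b) with cyclic loess, with the brighter 50% of probe sets and with trend and robust settings, and 2 with the mean of all probe sets (Rab3b and Rab40b); leaving out 1 array gave 0 to 1. At 16 h the fit of only the arrays compared called 1 gene, Rab9b, against 3; leaving out 1 array gave 2 to 4. The difference of responses at 16 h had 1 called gene, Rab9b, with the brighter 50%, with trend and robust settings and with the mean of all probe sets, and 0 to 1 with 1 array left out. Between pCTSH#1 and untransfected cells 1 gene was called with the brighter 50% and with trend and robust settings (Rab3b), and 2 with the mean of all probe sets. The cause of these shifts was not tested. Same-numbered arrays deviated together, all 3 correlations above 0.1, in 2 of 21 pairs of groups: pCTSH#1 with pcDNA and pcDNA with untransfected cells, each at 0 h. In the other pairs at least 1 was not above it (range over all -0.0903 to 0.244). Even so, 79 of 126 best matches were to the same number, above the 1 in 3 of a random choice among 3 arrays. That is a hint from the data that same-numbered arrays share deviations, for which the main fit has no term. With a replicate block 23, 36 and 35 Rab genes were called in pCTSH#1 (6 against 0 h, 16 against 0 h, 16 against 6 h), 24, 34 and 28 in pcDNA, and 0, 3 and 3 between the lines at 0, 6 and 16 h. It called 0 Rab genes in either line against untransfected cells. Cyclic loess raised the share of higher genes among all genes called at 6 h to 49.6% in pCTSH#1 and 48.8% in pcDNA, against 37.9% and 37.1% as deposited.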

Other observations

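Several Rab genes had probe sets that moved unlike the one described. A fainter probe set of Rab11a, a regulator of recycling endosomes, fell at 16 h by 1.47 in pCTSH#1 and by 1.59 in pcDNA, while the brighter one was not called (0.022 and 0.094). Of the 4 fainter probe sets of Rab5b, 2 were called higher at 16 than at 6 h in pcDNA, by 1.02 (at background on 10 arrays) and 0.82, and 2 were not called (−0.18 and −0.020), while the brightest was lower by 0.46. The second probe set of Rab40b fell at 16 h by 1.80 in pCTSH#1 and by 1.35 in pcDNA, the same direction as the one described. Which transcript each probe set reads was not analysed here.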
